A study of Homo sapiens with 12 samples.

Results

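The 10 genes described here encode subunits of the mTOR complexes and near partners. Other mTORC2 subunits, such as those encoded by MAPKAP1 and PRR5, are not in this set. They were chosen by name for their role in the pathway, with earlier results of these data known. They make up 10 of the 28008 genes in the deposited count tables. MTOR is the kinase, MLST8 its stabilizing partner, RPTOR the scaffold that defines mTORC1 and RICTOR the scaffold that defines mTORC2. AKT1S1 (also called PRAS40) and DEPTOR are inhibitory subunits, RHEB is the small GTPase that activates mTORC1 at the lysosome, and RPS6KB1 (S6 kinase), EIF4EBP1 (a repressor of cap-dependent translation) and ULK1 (a kinase that starts autophagy) are substrates. When growth factors and amino acids are plentiful, mTORC1 drives protein synthesis and holds autophagy back, whereas mTORC2 phosphorylates AKT and related kinases. In pancreatic neuroendocrine tumors (pNETs) the pathway is the target of the drug everolimus. The activity of mTOR is set largely by phosphorylation and by its place in the cell, neither of which RNA-seq measures.

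QGP-1 and BON-1, the cells sequenced, are established human lines from pNETs. Cells of both lines carried the same tet-MUC1shRNA vector, from which doxycycline (DOX) induces a short hairpin RNA against MUC1. In each line, 3 libraries came from QGP-1/tet-MUC1shRNA or BON-1/tet-MUC1shRNA cells given vehicle (0.1% DMSO) and 3 from cells given 500 ng/mL DOX, for 7 days, which makes 12 libraries in 4 groups. No DOX-treated cells with a control hairpin are among the 12 libraries, so DOX itself and the hairpin cannot be told apart. The total count was 38224144 to 50525926 per QGP-1 library and 15981954 to 28484324 per BON-1 library. The counts of the 10 genes ran from 923 to 12305 in QGP-1 and from 259 to 13901 in BON-1. Levels are given as CPM (counts scaled to library size) after TMM scaling within a line, and a difference was called at an adjusted p below 0.05 in edgeR's quasi-likelihood test over all genes.

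MUC1, the target of the hairpin, stood at 7.19, 5.81 and 5.65 CPM with vehicle and at 0.705, 1.04 and 0.744 CPM with DOX in QGP-1. In BON-1 it stood at 20.6, 20.7 and 15.6 CPM with vehicle and at 1.48, 2.65 and 3.97 CPM with DOX. Every DOX library lay below every vehicle library of its line. Of 15 neuroendocrine marker genes, 14 had a mean above 1 CPM in each line; NEUROD1 was at 0 in QGP-1 and STMN2 at 0 in BON-1. Their summed level was 6167 to 7001 CPM with vehicle and 6940 to 7565 CPM with DOX in QGP-1, and 12273 to 15733 against 9868 to 10331 CPM in BON-1. Of 5 pancreatic acinar markers, 1 was above 1 CPM in each line, and their summed level was 82.6 to 151 CPM with vehicle and 28.9 to 40.0 CPM with DOX in QGP-1, and 35.8 to 45.9 against 19.3 to 27.0 CPM in BON-1. CPA1 and CTRB1 were at 0 in QGP-1, and CTRB1, AMY2A and PNLIP in BON-1. Of 6 fibroblast and 7 immune markers, 1 of each list was above 1 CPM in each line. The fibroblast sum was 1.81 to 3.66 CPM with vehicle and 1.14 to 1.32 CPM with DOX in QGP-1, and 5.22 to 6.65 against 10.7 to 11.6 CPM in BON-1. The immune sum was 9.99 to 11.6 CPM with vehicle and 15.8 to 19.3 CPM with DOX in QGP-1, and 1.74 to 2.39 against 2.08 to 5.01 CPM in BON-1. CD3E and CD3D were at 0 in QGP-1, and CD3D and MS4A1 in BON-1. Several of these sums thus separated vehicle from DOX libraries, in directions that were not always shared by the lines. The part of these markers in the results was not tested. In such bulk RNA, fewer cells of a type and less RNA per cell cannot be told apart.

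Few of the mTOR complex genes were called with DOX at the RNA level, which does not show that the others were unchanged. In QGP-1, 1 of the 10 genes was called (MTOR, higher), where 35.0% of the 15089 genes tested were called, 17.3% higher. In BON-1, 1 of the 10 was called (DEPTOR, higher), where 35.3% of 14625 were called, 17.0% higher. None was lower by the test in either line, although 17.7% of all genes were called lower in QGP-1 and 18.3% in BON-1. The median log2 fold change of the 10 genes was -0.03 in QGP-1 and 0.13 in BON-1, beside -0.01 over all genes in each line. By edgeR, no gene of the 10 was called in both lines. Of the 13535 genes tested in both, 14.1% were called in the same direction. With DESeq2, MTOR was called higher in both lines, as described below.

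**Figure D1:**
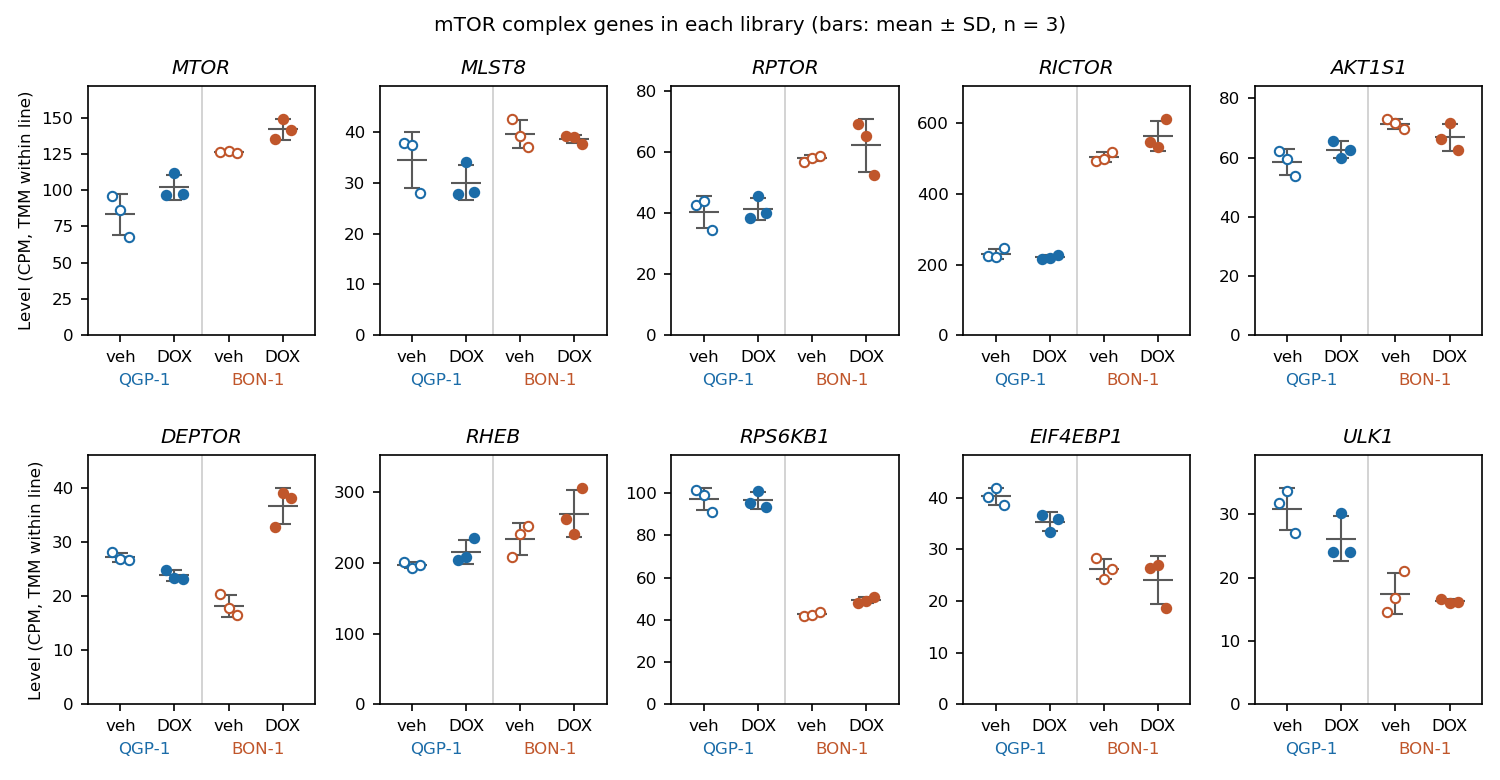
Level of each mTOR complex gene in every library, in CPM after TMM scaling within a line, each axis starting at 0. Points are libraries, open for vehicle and filled for DOX, and bars give the mean ± SD of 3 libraries. The DEPTOR points of BON-1 separate most widely, from 16.5 to 20.3 CPM with vehicle to 32.8 to 39.1 CPM with DOX.

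MTOR lies on chr1:11106535-11262556 (GRCh38, minus strand, GENCODE annotation). In QGP-1, it stood at 95.8, 86.3 and 67.7 CPM with vehicle and at 97.0, 112 and 97.2 CPM with DOX. The groups did not overlap, but the highest vehicle library came within about a unit of the lowest DOX library, and vehicle replicate 3 lay well below the rest. The mean rose from 83.3 ± 14.3 to 102 ± 8.45 CPM (SD, n = 3 in each group), a 1.23-fold change (log2 fold change 0.29, SE 0.11, 95% confidence interval 0.06 to 0.53, edgeR adjusted p = 0.0481). DESeq2 on the same 6 libraries called it too (log2 fold change 0.30, DESeq2 adjusted p = 0.0259). The edgeR call sat at the threshold: 4 of the 6 libraries, when left out singly, took it away. Without vehicle replicate 3 the log2 fold change was 0.16 (edgeR adjusted p = 0.172). Without DOX replicate 2 it was 0.23 (edgeR adjusted p = 0.163), without vehicle replicate 2 it was 0.32 (edgeR adjusted p = 0.0927), and without DOX replicate 3 it was 0.33 (edgeR adjusted p = 0.0540).

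In BON-1, MTOR stood at 126, 127 and 126 CPM with vehicle and at 135, 149 and 142 CPM with DOX. Here too every DOX library was above every vehicle library, and the vehicle libraries were nearly level. The log2 fold change was 0.17 with a 95% confidence interval of 0.02 to 0.32, and it missed the threshold in edgeR (adjusted p = 0.0771) but passed in DESeq2 (adjusted p = 0.0426). The BON-1 and QGP-1 responses of MTOR differed by -0.11 with a 95% confidence interval of -0.39 to 0.17, and that difference was not called (edgeR adjusted p = 0.632). MTOR RNA was therefore not called lower with DOX in either line, and it was called higher in both with DESeq2.

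As MTOR was the one catalytic gene called in QGP-1, the 250 bases before its start in the RefSeq promoter table are shown (chr1:11262552-11262801 of GRCh38.p14, minus strand, 5′ to 3′). Capitals mark ATTGG, the reverse complement of the CCAAT box, a promoter element bound by NF-Y.
MTOR: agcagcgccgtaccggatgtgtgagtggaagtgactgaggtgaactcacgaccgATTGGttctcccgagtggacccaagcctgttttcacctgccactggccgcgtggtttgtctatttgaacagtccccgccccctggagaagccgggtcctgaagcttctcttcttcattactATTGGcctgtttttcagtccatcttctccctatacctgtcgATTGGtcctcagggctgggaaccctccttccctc
The matches begin 196, 75 and 34 bases before the start. Promoters of 6 of the 10 genes were in the table (MTOR, RPTOR, RICTOR, RHEB, RPS6KB1 and ULK1), each read over 300 bases that include 50 after the start. CCAAT, on either strand, was in 3 of these 6 (MTOR, RHEB and RICTOR) and in 34.6% of all 34943 promoters; this motif was chosen after the MTOR sequence was seen. CACGTG, the E-box that MYC binds, reads the same on both strands and was in none of the 6 and in 7.23% of all promoters. These letter matches describe the sequence and are not evidence of binding.

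The other core and scaffold genes were not called by edgeR in either line with all libraries kept. MLST8 (chr16:2204248-2209453, plus strand) stood at 38.0, 37.6 and 28.1 CPM with vehicle and 27.9, 34.0 and 28.3 CPM with DOX in QGP-1, and vehicle replicate 3 again lay apart from the other vehicle libraries. Its log2 fold change was -0.20 (95% confidence interval -0.46 to 0.06, edgeR adjusted p = 0.220), and -0.33 without that library (edgeR adjusted p = 0.0264). In BON-1 the log2 fold change of MLST8 was -0.04 (95% confidence interval -0.24 to 0.15).

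RPTOR (chr17:80544819-80966371, plus strand) had overlapping groups in both lines. Its log2 fold change was 0.04 in QGP-1 (95% confidence interval -0.19 to 0.26) and 0.10 in BON-1 (95% confidence interval -0.09 to 0.30). RICTOR (chr5:38937920-39074402, minus strand) stood at 223, 220 and 247 CPM with vehicle and 217, 218 and 228 CPM with DOX in QGP-1, where the groups overlapped and the log2 fold change was -0.06 (95% confidence interval -0.20 to 0.09). In BON-1 it stood at 494, 500 and 520 CPM with vehicle and 547, 533 and 613 CPM with DOX. Those BON-1 groups did not overlap, and the log2 fold change of 0.16 missed the threshold in edgeR (adjusted p = 0.109) and passed narrowly in DESeq2 (adjusted p = 0.0486).

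DEPTOR (chr8:119873717-120050918, plus strand), which binds mTOR and inhibits it in both complexes, was the gene of the 10 that changed most. In BON-1, it stood at 20.3, 17.7 and 16.5 CPM with vehicle and at 32.8, 39.1 and 38.1 CPM with DOX. The lowest DOX library was far above the highest vehicle library, and the mean went from 18.2 ± 1.96 to 36.7 ± 3.38 CPM (SD, n = 3 in each group). This 2.01-fold rise (log2 fold change 1.01, SE 0.11, 95% confidence interval 0.77 to 1.24, edgeR adjusted p = 7.33e-08) was called in all 6 fits that left out a library, with log2 fold changes of 0.94 to 1.10.

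In QGP-1, DEPTOR stood at 28.1, 26.8 and 26.6 CPM with vehicle and at 24.9, 23.4 and 23.2 CPM with DOX. All DOX libraries were below all vehicle libraries, the opposite order to BON-1, but the log2 fold change of -0.19 (95% confidence interval -0.38 to -0.0025) was not called (edgeR adjusted p = 0.108). The difference between the BON-1 and QGP-1 responses was 1.21 on the log2 scale (SE 0.15, 95% confidence interval 0.90 to 1.52, edgeR adjusted p = 4.62e-06). DEPTOR was the only gene of the 10 whose response differed between the lines by the test, where 16.7% of 16598 genes did (8.80% with the more positive response in BON-1), and it was called in all 12 fits that left out a library (1.12 to 1.28). With vehicle, DEPTOR was 1.57-fold higher in QGP-1 than in BON-1. With DOX the order of the lines was turned, at 36.7 CPM in BON-1 and 23.8 CPM in QGP-1, each scaled within its own line.

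AKT1S1 (chr19:49869033-49878459, minus strand), the other inhibitory subunit, was not called in either line. Its groups overlapped in both lines, with log2 fold changes of 0.10 in QGP-1 (95% confidence interval -0.07 to 0.27) and -0.10 in BON-1 (95% confidence interval -0.27 to 0.07). The gene overlaps TBC1D17 on the other strand, and the strand setting of the counting was not given in the sources used here.

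**Figure D2:**
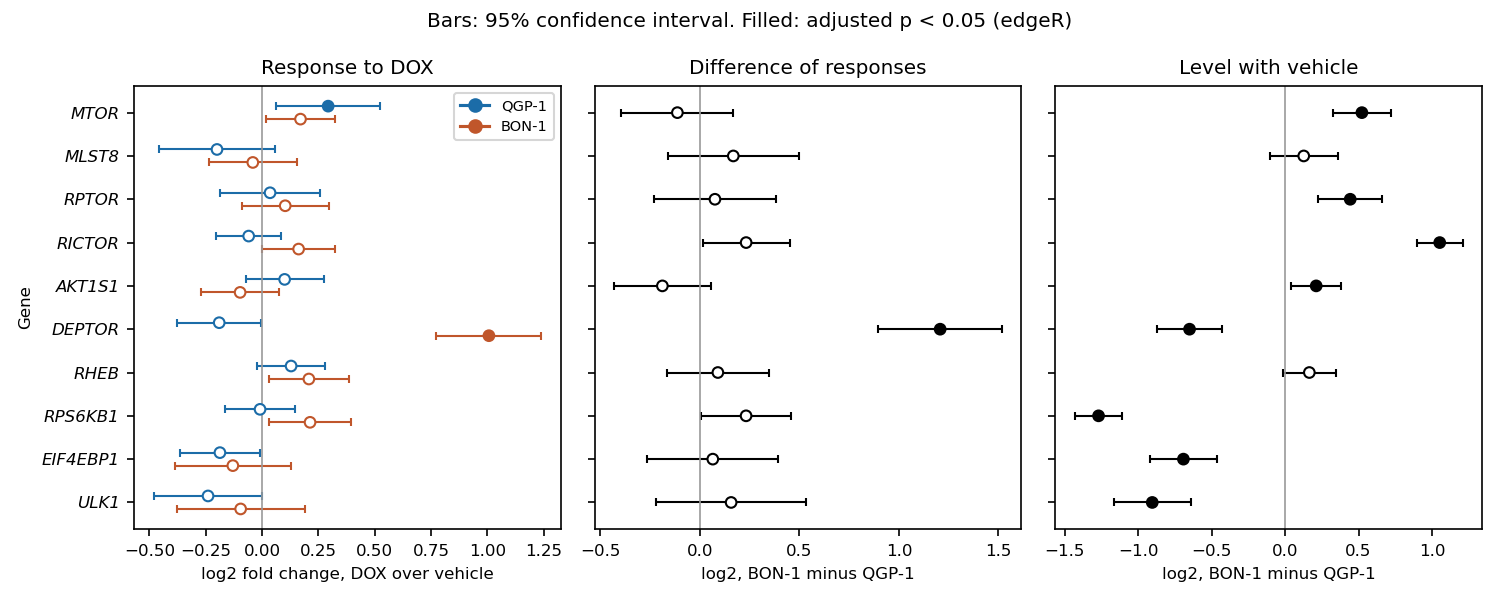
Log2 fold changes of the 10 genes with DOX in each line (left), the BON-1 minus QGP-1 difference of those responses (middle) and the BON-1 minus QGP-1 difference in level with vehicle (right), with 95% confidence intervals; filled points have an edgeR adjusted p below 0.05. DEPTOR alone is filled in the middle panel, at 1.21, and 8 of 10 genes are filled on the right.

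RHEB (chr7:151466012-151520120, minus strand), the activator, stood at 202, 193 and 197 CPM with vehicle and 204, 209 and 234 CPM with DOX in QGP-1, groups that did not overlap. The log2 fold change was 0.13 and was not called (95% confidence interval -0.02 to 0.28, edgeR adjusted p = 0.170). In BON-1 the groups overlapped and the log2 fold change was 0.21 (95% confidence interval 0.03 to 0.39, edgeR adjusted p = 0.0647), which was called at 0.27 without DOX replicate 2 (edgeR adjusted p = 0.0324). The annotation holds 3 pseudogenes named for RHEB, so reads may be shared between copies and its level is less certain.

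Among the substrates, RPS6KB1 (chr17:59893046-59950574, plus strand) stood at 42.0, 42.2 and 43.6 CPM with vehicle and 47.9, 49.1 and 50.8 CPM with DOX in BON-1. The groups were tight and did not overlap, yet the log2 fold change of 0.21 was short of the threshold (95% confidence interval 0.03 to 0.40, edgeR adjusted p = 0.0623); it passed where both lines were fitted together (0.22, edgeR adjusted p = 0.0375). In QGP-1 the RPS6KB1 level was 97.3 ± 5.29 CPM with vehicle and 96.7 ± 4.01 CPM with DOX (SD, n = 3 in each group), a log2 fold change of -0.01 with a 95% confidence interval of -0.16 to 0.15.

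EIF4EBP1 (chr8:38030534-38060365, plus strand) stood at 40.3, 42.0 and 38.6 CPM with vehicle and 36.8, 33.3 and 36.0 CPM with DOX in QGP-1. The DOX libraries were all lower, but the log2 fold change of -0.19 was not called (95% confidence interval -0.36 to -0.01, edgeR adjusted p = 0.0954). In BON-1 its groups overlapped, with a log2 fold change of -0.13 (95% confidence interval -0.39 to 0.13). The annotation holds 1 pseudogene named for EIF4EBP1, so its level too is less certain.

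ULK1 (chr12:131894622-131923150, plus strand) had overlapping groups in both lines. Its log2 fold change was -0.24 in QGP-1 (95% confidence interval -0.48 to 0.0018, edgeR adjusted p = 0.115) and -0.09 in BON-1 (95% confidence interval -0.38 to 0.19). The QGP-1 value was called when vehicle replicate 3 (-0.33) or DOX replicate 2 (-0.35) was left out. With MTOR, DEPTOR and RHEB, EIF4EBP1 made 4 of 10 genes whose groups did not overlap in QGP-1, where 46.7% of all genes had that pattern. In BON-1 it was again 4 of 10 (MTOR, RICTOR, DEPTOR and RPS6KB1), where 46.3% of all genes had it.

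With vehicle, 8 of the 10 genes differed in level between BON-1 and QGP-1, close to the 74.9% of all 16598 genes. The differences below are on the log2 scale, BON-1 minus QGP-1, after TMM scaling over all 12 libraries. MTOR (0.52), RPTOR (0.44), RICTOR (1.05) and AKT1S1 (0.21, edgeR adjusted p = 0.0240) were higher in BON-1, 4 of 10 where 37.5% of all genes were. DEPTOR (-0.65), RPS6KB1 (-1.27), EIF4EBP1 (-0.69) and ULK1 (-0.90) were higher in QGP-1, again 4 of 10 beside 37.5%. MLST8 (0.13, 95% confidence interval -0.10 to 0.36) and RHEB (0.17, 95% confidence interval -0.02 to 0.35) were not called, although RHEB was called without QGP-1 DOX replicate 1 (0.20), BON-1 vehicle replicate 1 (0.23) or BON-1 DOX replicate 2 (0.19).

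RPS6KB1 was thus 2.41-fold higher in QGP-1 and RICTOR 2.08-fold higher in BON-1. RICTOR overlaps OSMR on the other strand, and OSMR had 2350 to 4429 counts per BON-1 library but 34 to 80 per QGP-1 library; its part in the RICTOR difference was not tested. The AKT1S1 difference was lost on leaving out any of 3 of the 12 libraries (QGP-1 vehicle replicate 3, BON-1 vehicle replicate 1 or BON-1 vehicle replicate 2, lowest 0.15). Line and culture medium cannot be told apart in these differences.

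Levels of different genes were compared per length, as the deposited TPM of a gene divided by that of MTOR in the same library. RHEB was the most abundant of the 10 in all 4 groups, from 8.75 ± 0.867 times MTOR in BON-1 with vehicle to 11.4 ± 2.02 times in QGP-1 with vehicle (SD, n = 3 in each group). The order below RHEB was the line's own. In QGP-1 with vehicle, EIF4EBP1 came next (7.31 ± 1.12 times MTOR), then RICTOR, AKT1S1, RPS6KB1, MLST8, DEPTOR, MTOR, ULK1 and RPTOR. In BON-1 with vehicle, RICTOR came next (3.62 ± 0.113 times MTOR), then EIF4EBP1, AKT1S1, MLST8, MTOR, RPTOR, RPS6KB1, DEPTOR and ULK1.

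In QGP-1 with vehicle, the library ranges of RICTOR and AKT1S1, AKT1S1 and RPS6KB1, MLST8 and DEPTOR, and ULK1 and RPTOR overlapped. Even so, within each of the 3 libraries RICTOR was above AKT1S1 and AKT1S1 above RPS6KB1, whereas the other 2 pairs changed order between libraries and did not differ beyond their spread. In BON-1 with vehicle the ranges of MLST8 and MTOR and of RPS6KB1 and DEPTOR overlapped, and each pair changed order between libraries. The ratio of DEPTOR to MTOR in BON-1 went from 0.518 ± 0.0547 with vehicle to 0.927 ± 0.0484 with DOX, whereas in QGP-1 it went from 1.20 ± 0.193 to 0.844 ± 0.0857. RPTOR, by the same measure, was 0.572, 0.657 and 0.651 times MTOR with vehicle and 0.510, 0.524 and 0.529 times with DOX in QGP-1, groups that did not overlap. The QGP-1 ratios of DEPTOR, MLST8, RPS6KB1, EIF4EBP1 and ULK1 were likewise all lower with DOX, whereas those of RHEB, RICTOR and AKT1S1 overlapped. Such ratios also move with MTOR, whose own log2 fold change in QGP-1 was 0.29, beside 0.04 for RPTOR and -0.19 for DEPTOR. A lower ratio is therefore not by itself a lower level of the gene. In BON-1 the mean RPTOR ratio was 0.590 with vehicle and 0.565 with DOX, and the groups overlapped. The BON-1 ratios of AKT1S1 (mean 1.75 to 1.46) and MLST8 (1.03 to 0.893) were all lower with DOX. Those of DEPTOR were all higher, whereas those of RHEB, RICTOR, RPS6KB1, EIF4EBP1 and ULK1 overlapped.

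**Figure D3:**
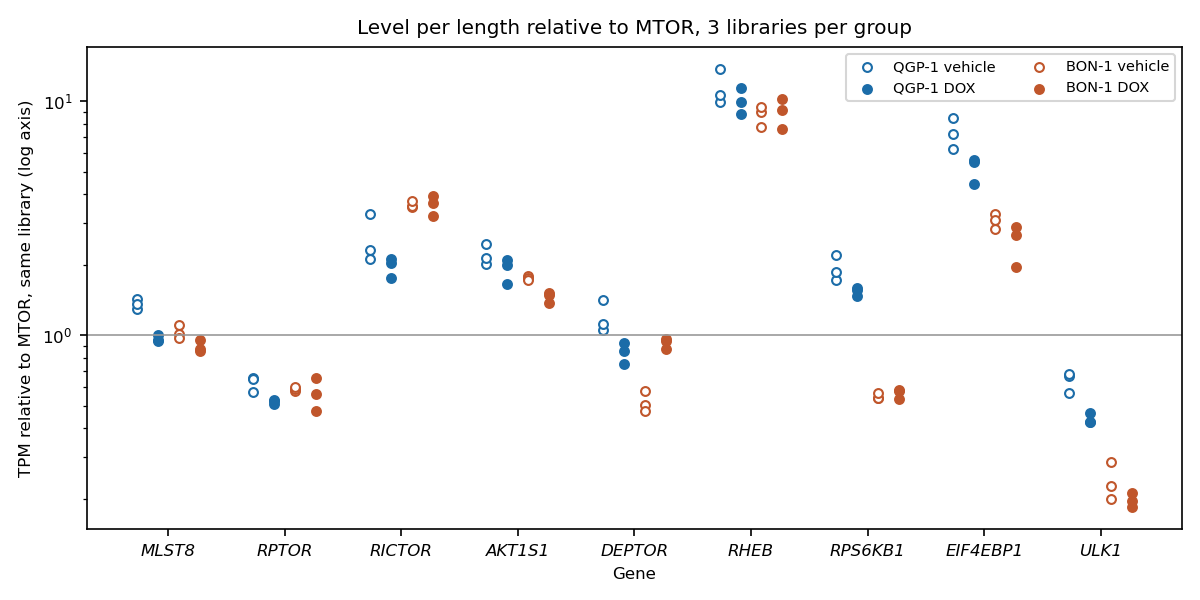
TPM of 9 genes divided by the TPM of MTOR in the same library, on a log axis, with 3 libraries for each of the 4 groups. RHEB is highest in every group, and the mean of DEPTOR goes from 0.518 to 0.927 in BON-1 and from 1.20 to 0.844 in QGP-1.

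The genes whose levels most resembled MTOR over the 12 libraries, with each gene centred within its line, were OGDH (Pearson r = 0.948), HUWE1 (r = 0.947) and BAZ1B (r = 0.939) among 9004 genes. These correlations describe 12 libraries of 4 groups and were not tested. Of the other 9 members, RPS6KB1 (r = 0.589) and RPTOR (r = 0.577) came closest to MTOR, and EIF4EBP1 was lowest (r = -0.351).

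Genes around the complexes were called in both directions. A list of 76 further genes of the pathway, also chosen with earlier results of these data known, had 73 tested in each line. In QGP-1, 20 were called lower and 13 higher (45.2% together, beside 35.0% of all genes). In BON-1, 16 were lower and 13 higher (39.7%, beside 35.3%). The median log2 fold change was -0.06 in each line. Of 71 genes tested in both lines, 7 were called lower in both and 6 higher in both, 13 of 71 together, beside 14.1% of all genes tested in both lines.

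DDIT4 (also called REDD1), which is induced by stress and restrains mTORC1 through the TSC complex, fell most among the genes lower in both lines. It stood at 14.3, 14.4 and 14.5 CPM with vehicle and 4.83, 4.74 and 7.55 CPM with DOX in QGP-1 (log2 fold change -1.34, SE 0.16, edgeR adjusted p = 3.83e-05). In BON-1 it stood at 5.15, 5.59 and 5.45 CPM with vehicle and 1.86, 3.02 and 2.09 CPM with DOX (log2 fold change -1.20, SE 0.25, edgeR adjusted p = 0.000408). No DOX library reached the vehicle range in either line. The TSC complex itself and the RHEB relative RHEBL1 had 0 of 4 genes called in each line, beside 35.0% of all genes in QGP-1 and 35.3% in BON-1. Of these, TBC1D7 and RHEBL1 were weakly expressed (group means up to 1.63 CPM) and their SEs were wide, at 0.35 to 0.44. TBC1D7 in QGP-1 had a log2 fold change of 0.67 with groups that did not overlap, so the absence of a call does not show that these genes were unchanged.

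Of the Ragulator subunits, which anchor mTORC1 to the lysosome, LAMTOR1, LAMTOR2 and LAMTOR3 were lower in both lines. LAMTOR3 had the largest of these changes, from 42.3, 47.0 and 56.6 CPM to 29.8, 22.0 and 24.7 CPM in QGP-1 (log2 fold change -0.93, edgeR adjusted p = 7.19e-05). In BON-1 it went from 46.5, 57.8 and 53.0 to 41.4, 40.1 and 45.5 CPM (log2 fold change -0.31, edgeR adjusted p = 0.0146). The log2 fold changes of LAMTOR1 were -0.39 and -0.31, and those of LAMTOR2 were -0.30 and -0.51, in QGP-1 and BON-1 in that order. LAMTOR4 was called in BON-1 (-0.85, edgeR adjusted p = 0.00150) and had -0.39 in QGP-1 (edgeR adjusted p = 0.311; called at -0.79 without DOX replicate 3). LAMTOR5, the fifth subunit, is named here after its values were seen. It went from 105, 116 and 120 to 161, 133 and 144 CPM in BON-1 (log2 fold change 0.36, edgeR adjusted p = 0.000984), opposite to the other subunits, and was called in all 6 fits that left out a library. In QGP-1 LAMTOR5 had a log2 fold change of -0.13 that was not called (edgeR adjusted p = 0.313). FNIP1 and FNIP2, partners of folliculin, which acts on the Rag GTPases, were higher in both lines (0.33 and 0.23 for FNIP1, 0.41 and 0.44 for FNIP2). Of the 13 Rag and Ragulator genes, 3 were lower and 3 higher in QGP-1 (46.2% together, beside 35.0% of all genes), and 4 and 4 in BON-1 (61.5%, beside 35.3%).

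Upstream of mTOR, the kinase AKT1 was lower in both lines (log2 fold change -0.26 in QGP-1 and -0.44 in BON-1). The PI3-kinase catalytic genes were higher in both, PIK3CA by 0.50 in QGP-1 and 0.45 in BON-1, and PIK3CB by 0.29 and 0.48. So was the insulin receptor substrate IRS1 (0.33 and 0.39). IRS2 was called in QGP-1 (0.63, edgeR adjusted p = 0.000127) and had 0.18 in BON-1 (edgeR adjusted p = 0.149). Of the 15 upstream genes tested in each line, 3 were lower and 8 higher in QGP-1, where 17.7% of all genes were lower and 17.3% higher. In BON-1, 4 were lower and 5 higher, where the shares of all genes were 18.3% and 17.0%.

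PIK3R1, the regulatory subunit of PI3-kinase, was called in opposite directions. It went from 76.0, 74.3 and 70.3 to 99.1, 98.7 and 96.2 CPM in QGP-1 (log2 fold change 0.41, edgeR adjusted p = 0.000418) and from 149, 131 and 147 to 102, 105 and 110 CPM in BON-1 (log2 fold change -0.43, edgeR adjusted p = 7.08e-05). MITF, a transcription factor of lysosomal genes, moved the other way in each line. It went from 18.8, 19.4 and 16.8 to 9.95, 9.84 and 9.48 CPM in QGP-1 (log2 fold change -0.91, edgeR adjusted p = 2.79e-05) and from 46.4, 41.3 and 42.5 to 56.0, 67.5 and 72.0 CPM in BON-1 (log2 fold change 0.59, edgeR adjusted p = 2.18e-05). No group pair overlapped for either gene. Opposite calls were made for these 2 of the 71 genes, beside 2.69% of all genes tested in both lines.

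**Figure D4:**
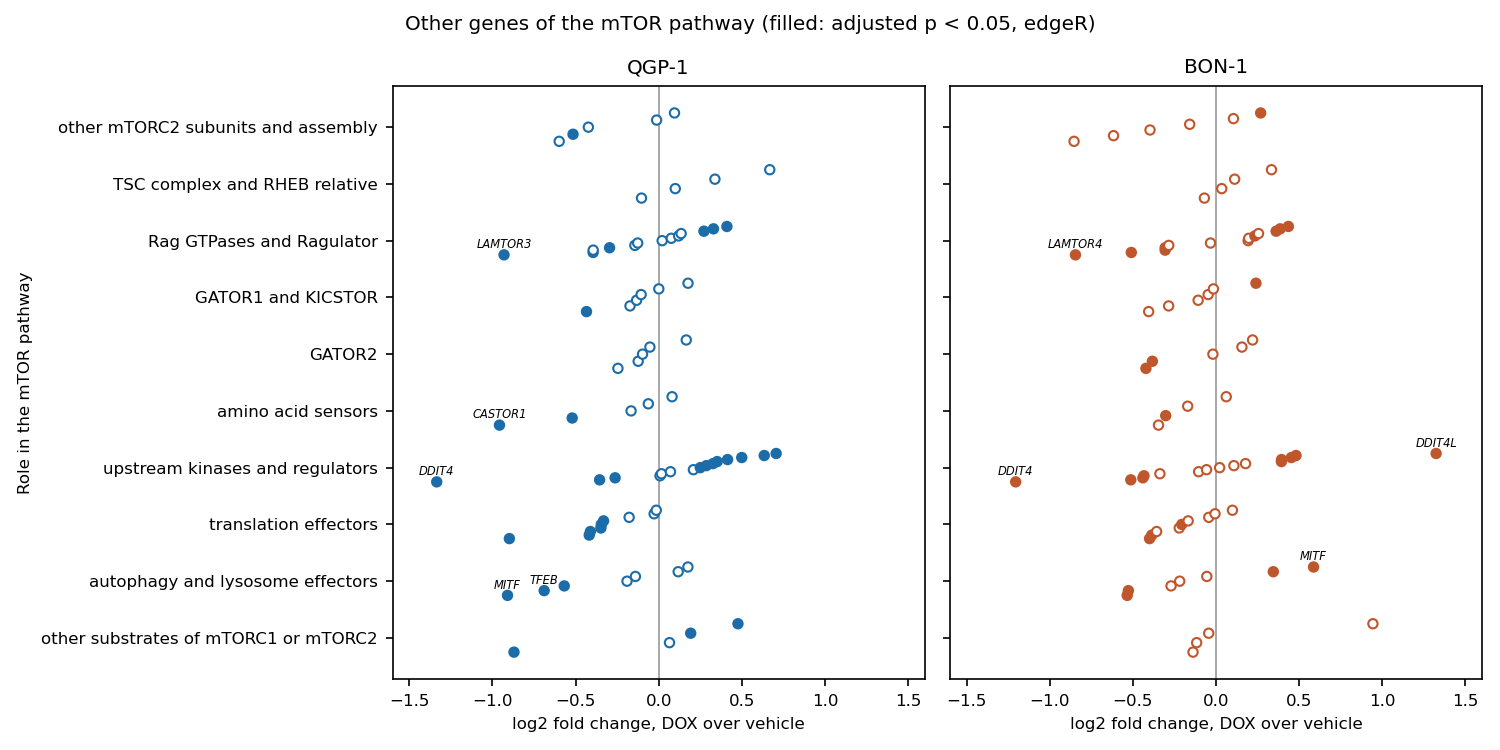
Log2 fold change with DOX of the 73 genes tested in each line of the wider mTOR pathway list, by role. Filled points have an edgeR adjusted p below 0.05. Names mark some of the genes described in the text that had large changes. DDIT4 lies farthest to the left in both lines, and MITF lies on opposite sides.

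Downstream, EEF2K, the kinase of elongation factor eEF2, was lower in both lines (log2 fold change -0.33 in QGP-1 and -0.39 in BON-1), and so was TFEB, the lysosomal transcription factor that mTORC1 keeps in the cytoplasm (-0.69 and -0.53). TFEB was low, at 2.39, 2.64 and 2.97 CPM with vehicle and 1.49, 1.57 and 1.91 CPM with DOX in QGP-1. Its calls were near the threshold (edgeR adjusted p = 0.0362 in QGP-1 and 0.0476 in BON-1), and each was lost on leaving out any of 4 of the 6 libraries (vehicle replicates 2 and 3 and DOX replicates 1 and 2 in QGP-1, -0.60 at the smallest; vehicle replicates 1 and 2 and DOX replicates 1 and 3 in BON-1, -0.41). Of 9 translation effectors tested in each line, 6 were lower and 0 higher in QGP-1, where 17.7% of all genes were lower and 17.3% higher. In BON-1, 3 were lower and 0 higher, where 18.3% of all genes were lower and 17.0% higher. The median log2 fold change of these effectors was -0.35 in QGP-1 and -0.21 in BON-1. The median of all genes was -0.01 in each line.

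CASTOR1 and DDIT4L, also among the largest changes in a line, were weakly expressed. CASTOR1, an arginine sensor, went from 2.52, 3.15 and 2.05 to 1.49, 1.85 and 0.627 CPM in QGP-1 (log2 fold change -0.96, edgeR adjusted p = 0.0430) and was too low to be tested in BON-1. DDIT4L, a relative of DDIT4, went from 0.604, 1.33 and 0.889 to 1.80, 2.96 and 2.24 CPM in BON-1 (log2 fold change 1.32, edgeR adjusted p = 0.0113) and had no count in any QGP-1 library. Both calls rested on few reads, and CASTOR1 was lost without vehicle replicate 1 or 2 or DOX replicate 3 (log2 fold change as small in size as -0.62), and DDIT4L without vehicle replicate 1 or DOX replicate 2 (1.06 at the least).

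Some calls among the genes named from the wider list were also lost when 1 library was left out. Such fits have fewer libraries, and calls over all genes mostly fell in them too. In QGP-1, 2676 lower became 1996 to 2614, and 2610 higher became 1975 to 2644. In BON-1, 2677 lower became 2194 to 2577, and 2488 higher became 1908 to 2196. In QGP-1, AKT1 was not called without vehicle replicate 1 or 2 or DOX replicate 2 or 3 (log2 fold change -0.21 at the smallest, edgeR adjusted p up to 0.108), and PIK3CB not without vehicle replicate 2 or 3 or DOX replicate 2 or 3 (at least 0.24, up to 0.118). LAMTOR2 in QGP-1 was lost without vehicle replicate 1 or 2 or DOX replicate 1 or 2 (-0.20, up to 0.147) and EEF2K without vehicle replicate 1 or 2 (-0.28, up to 0.0589). In BON-1, LAMTOR1 was lost without vehicle replicate 2 or 3 or DOX replicate 1 or 3 (-0.27, edgeR adjusted p up to 0.132), LAMTOR2 without vehicle replicate 1 or 2 or DOX replicate 3 (-0.41, up to 0.0719), LAMTOR3 without vehicle replicate 2 or DOX replicate 1 or 2 (-0.24, up to 0.115), and FNIP1 without vehicle replicate 2 or 3 or DOX replicate 3 (0.18, up to 0.101). The direction of these changes was the same in every one of those fits. The calls of DDIT4, PIK3CA, IRS1, FNIP2, PIK3R1 and MITF held in both lines whichever library was left out, as did those of LAMTOR3, LAMTOR1, FNIP1 and IRS2 in QGP-1 and of AKT1, PIK3CB, EEF2K and LAMTOR4 in BON-1.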

How the data were processed

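RNA-seq libraries were stranded and poly(A)-selected. Per the labels and the study's methods, the authors aligned reads to GRCh38 with STAR and deposited a raw count per gene and a TPM value per gene; the counting tool and its strand setting were not given in the sources used here. No deposited column of per-sample values was left unused (0). Counts of each line were tested in R 4.3.3 with edgeR 4.0.16 (TMM, filterByExpr, quasi-likelihood test, Benjamini-Hochberg adjustment over all genes tested, threshold 0.05, no minimum fold). The study named DESeq2, which was run as an alternative (1.42.0). SEs were the log2 fold change divided by the root of F. Differences between lines came from 1 fit of 12 libraries. An exact permutation test of 3 against 3 cannot go below p = 0.1, so none was used. Replicates were described as biologic triplicates, and no 2 libraries of a group agreed within sampling noise (chi-square per gene at least 5.93). The code was tested on simulated counts.

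The members and lists were chosen with earlier results of these data known. Genes named from the wider list were those called in both lines and, per line, the 2 most positive and 2 most negative called log2 fold changes; for likeness to MTOR, the 3 highest correlations of log2 CPM (prior count 2, mean of at least 3 in each line). Some genes that this rule names are not reported here, and LAMTOR5 was added after its values were seen. Alternatives were DESeq2, library size or DESeq2 size factors in place of TMM, no filter, a minimum of 10 counts in every library, a replicate block, both lines in 1 fit, limma 3.58.1 on log2(TPM + 1) (mean TPM of 1 or more), a minimum absolute log2 fold change of 1, and leaving out each library. limma on TPM with each library centred on its median was added after seeing the data. Sequences were from RefSeq and positions from GENCODE.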

Additional observations from a re-analysis of the deposited data

Results flagged for a closer look

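A test of the difference itself found that the response to DOX was not the same in the lines for 5 of 27 genes. These 27 are members or named by rule and were tested in both lines. The rule picked genes by their responses in these data, so their share (18.5%) is partly set by it. It cannot be compared with the 16.7% of all 16598 genes. Without the rule, the difference was called for 17.3% of the 75 genes of the wider list tested and for 1 of the 10 members. LAMTOR5, named after its values were seen, is a further gene whose response differed. The differences are on the log2 scale, BON-1 minus QGP-1, with edgeR adjusted p-values. DEPTOR, the inhibitory subunit, differed by 1.21 (adjusted p = 4.62e-06), with a rise in BON-1 and a value of -0.19 in QGP-1 that was not called. MITF differed by 1.51 (adjusted p = 1.69e-07) and PIK3R1 by -0.84 (adjusted p = 5.46e-06), each called in both lines in opposite directions. LAMTOR3 differed by 0.64 (adjusted p = 0.00991), being lower in both lines and more so in QGP-1. IRS2 differed by -0.45 (adjusted p = 0.0297), and that call did not hold for 6 of the 12 libraries when each was left out. LAMTOR5 differed by 0.50 (adjusted p = 0.00881), higher in BON-1 and not called in QGP-1, and was not called without BON-1 DOX replicate 1 (0.40, adjusted p = 0.0541). The differences of DEPTOR, MITF, PIK3R1 and LAMTOR3 were called whichever library was left out. The causes of these differences were not tested, and line and culture medium cannot be told apart.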

How the results depend on the processing

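With 3 libraries a group, several calls near the threshold were lost when 1 library was left out, and the calls of CASTOR1 and DDIT4L rested on few reads. Of 563 single-gene values recomputed with edgeR or DESeq2 settings other than the fold minimum, 547 kept their direction and side of the threshold, 9 lost the call, 5 gained it and 2 changed sign (RPS6KB1 in QGP-1, 0.0064, and the EIF4EBP1 difference of responses, -0.0015, both with library size). In BON-1, 3 of the 10 genes were called with DESeq2 and 2 with both lines in 1 fit. With a minimum log2 fold change of 1, the 10 genes gave 0 calls in QGP-1, the wider list 1 lower and 0 higher in QGP-1 and 1 and 1 in BON-1, and all genes 360 lower and 183 higher against 447 and 272.

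The largest moves came with limma on log2(TPM + 1), which changed unit, test, filter and scaling together. There the median of all genes moved to 0.59 in QGP-1 and -0.31 in BON-1, so that all 10 genes were called in QGP-1 and 0 in BON-1 (DEPTOR 0.58, limma adjusted p = 0.466). The wider list then gave 1 lower and 52 higher in QGP-1 and 1 and 0 in BON-1, and all genes 91 and 9166 against 229 and 29. Signs turned in QGP-1 for MLST8 (0.46), RICTOR (0.62), DEPTOR (0.45), RPS6KB1 (0.65), EIF4EBP1 (0.53), ULK1 (0.36), LAMTOR1 (0.32), LAMTOR2 (0.43), LAMTOR4 (0.21), LAMTOR5 (0.61), AKT1 (0.44) and EEF2K (0.30), and in BON-1 for MTOR (-0.18), RPTOR (-0.24), RICTOR (-0.20), RHEB (-0.16), RPS6KB1 (-0.13), LAMTOR5 (-0.0060), FNIP1 (-0.11) and IRS2 (-0.16). With each library centred on its median, all genes gave 3033 lower and 1886 higher in QGP-1, DEPTOR was called again in BON-1 (0.90, limma adjusted p = 0.000110), 2 genes were called in QGP-1 (DEPTOR -0.20 and ULK1 -0.30), MTOR in QGP-1 was not (0.21, limma adjusted p = 0.107), and RPTOR in QGP-1 (-0.0836) and ULK1 in BON-1 (0.0015) changed sign.

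When each library was left out in turn, the number of the 10 genes called was 0 to 2 in QGP-1 and 1 to 2 in BON-1. The wider list had 13 to 19 lower in QGP-1 (13 without vehicle replicate 2), 9 to 18 lower in BON-1 (9 without vehicle replicate 1 or 2, 10 without DOX replicate 1), and 7 to 14 differences between lines (7 without BON-1 DOX replicate 1, 8 without QGP-1 vehicle replicate 3 or DOX replicate 2). Uncalled values crossed 0 for RPS6KB1 (-0.0531 to 0.0218), RPTOR (-0.0705 to 0.10) and LAMTOR5 (-0.19 to 0.00049) in QGP-1, for MLST8 (-0.0947 to 0.0147), ULK1 (-0.21 to 0.0462) and EIF4EBP1 (-0.23 to 0.0081) in BON-1, for the differences of responses of MTOR (-0.23 to 0.0170), RPTOR (-0.0306 to 0.18), RHEB (-0.0329 to 0.15) and EIF4EBP1 (-0.0737 to 0.20), and for the vehicle difference of MLST8 (-0.0034 to 0.20).

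The replicate numbers did not pair the samples, since deviations of same-numbered libraries correlated at -0.02, 0.05 and 0.04 in QGP-1 and -0.04, -0.03 and 0.07 in BON-1. With the number as a block, MTOR in QGP-1 had a log2 fold change of 0.30 (edgeR adjusted p = 0.0261) and DEPTOR in BON-1 1.01 (edgeR adjusted p = 7.51e-09), and no call among the named genes or direction of a listed value was changed by it.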

Other observations

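RPS6, the ribosomal protein that S6 kinase phosphorylates, was outside the naming rule and was picked out after its values were seen. Its log2 fold change was -0.90 in QGP-1 (edgeR adjusted p = 0.000146) and -0.01 in BON-1 (edgeR adjusted p = 0.967), and the responses differed by 0.90 (edgeR adjusted p = 0.000580). GRB10, an adaptor phosphorylated by mTORC1, was also picked out in this way, with -0.87 in QGP-1 (edgeR adjusted p = 9.06e-05) and -0.14 in BON-1 (edgeR adjusted p = 0.484), and a difference of 0.74 (edgeR adjusted p = 0.00783). RPS6 has processed copies in the genome, so its counts are less certain.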
